A study of Mus musculus with 32 samples.

Results

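Adhesion G protein-coupled receptors were followed in mouse MLL-Af4 leukemia cells through 9 genes, Adgre1, Adgre4, Adgre5, Adgrg1, Adgrg3, Adgrg5, Adgrl1, Adgrl2 and Adgrl4, out of 23620 genes listed for both cell types studied. The 9 genes were chosen by values of these same files, namely their rows in the tables that compare the genotypes and their IGF2BP3 eCLIP peaks, so the levels and peaks below are a description and carry no test. A fixed list held 22 further genes of the family, 18 of them listed for both cell types. The question put to them was where IGF2BP3, an oncofetal RNA-binding protein, was crosslinked on receptor transcripts, and how high the RNA level of each receptor was.

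The series held 32 libraries. Lin- cells were bone marrow cells of C57BL/6J or I3KO mice, depleted of lineage-positive cells, infected with a retrovirus carrying MLL-Af4, selected with G418 and grown in culture. I3KO mice were homozygous for a germline deletion in Igf2bp3, which arose from leaky Vav1-Cre. CD11b+ cells were selected on magnetic columns from splenic tumors of recipients of WT/MLL-Af4 or I3KO/MLL-Af4 marrow. Donors and recipients were 8-week-old females. The donor marrow was enriched with fluorouracil and infected with the MLL-Af4 retrovirus before transplantation. The recipients were irradiated CD45.1+ mice, so that host CD11b+ cells could be present among the sorted cells. Every group therefore carried MLL-Af4, and the wild-type and knockout groups of RNA-seq held 3 libraries each in each cell type. eCLIP, in which RNA crosslinked to IGF2BP3 by ultraviolet light is immunoprecipitated and sequenced, was made from WT/MLL-Af4 cells. It gave 6 Lin- libraries (3 biological and 3 technical) and 4 CD11b+ libraries (2 biological and 2 technical), with 10 size-matched inputs (smInput). The labels do not say which biological library a technical library repeats, or whether the biological libraries came from separate animals. The titles of the CD11b+ eCLIP libraries give no tissue. The names of their deposited data point to bone marrow while the protocol names spleen, and this was not settled.

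Each eCLIP library of Lin- cells held 4040 to 10042 filtered peaks, and each of CD11b+ cells 7085 to 10054. A filtered peak is a CLIPper peak kept by the authors' filter, which removed eCLIP peaks that overlap smInput peaks. A kept peak could still overlap an smInput peak, as at Adgrg3 site 2. Read depth is unknown, so a gene without a peak was not shown to be unbound. Levels are the authors' mean normalized count over the 6 RNA-seq libraries of a cell type, both genotypes together, with no error and no per-library value. The shares of genes at a like level therefore set peaks of WT/MLL-Af4 cells beside a level of both genotypes. The tables of the cell types were normalized apart from each other. In bulk RNA, fewer cells of a type and less RNA per cell cannot be told apart. Igf2bp3 itself had a mean of 2041 in the Lin- table and 1355 in the CD11b+ table, which pools both genotypes and so does not check the knockout. Itgam, which encodes CD11b, had a mean of only 16.98 in the CD11b+ table and was not listed in the Lin- table, while the myeloid gene Lyz2 reached 72146 and 20990. Markers of macrophages were at a mean of 10 or more for 9 of 9 genes in CD11b+ cells and 8 of 9 in Lin- cells, with medians of 325 and 340. Those of progenitors numbered 6 of 7 and 7 of 7, with medians of 536 and 4541, and those of neutrophils 9 of 9 in each, with medians of 27716 and 2083. Endothelial markers at that level numbered 1 of 7 in CD11b+ and 5 of 7 in Lin- cells, eosinophil markers 2 of 5 and 4 of 5, T and NK markers 0 of 7 and 1 of 7, B cell markers 5 of 5 and 2 of 5, and erythroid markers 4 of 4 and 3 of 4. The part of these cells in the levels of the receptors was not tested.

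Adhesion receptors carry a long extracellular region that is cut by the receptor itself beside the membrane, so that the outer fragment stays attached and can uncover a tethered agonist when it is pulled away. Many couple to heterotrimeric G proteins. In blood, Adgre1 is the macrophage marker F4/80, Adgre5 is CD97, a leukocyte receptor that binds CD55, Adgrg1 (GPR56) is high on hematopoietic stem cells, and Adgrg3 (GPR97) is a receptor of granulocytes. Adgrl1 and Adgrl2 are latrophilins, which bind teneurins and FLRT proteins, and Adgrl4 is best known from endothelium.

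Overlapping filtered peaks on the same strand were merged into sites, numbered along each gene from its start. The 5 genes with peaks held 24 sites, made of 39 filtered peaks. No peak on the 9 genes had been removed by the input filter, so the unfiltered peaks give the same sites. Over all genes the filter kept 41132 of 49504 Lin- peaks and 33246 of 38501 CD11b+ peaks. The inputs themselves held few peaks, 217 to 1808 each in Lin- and 1381 to 1885 each in CD11b+ cells. Of the 24 sites, 11 crossed a 3′ splice site, the end of an intron, and 1 crossed a 5′ splice site, the start of an intron, alone. A CA or TG repeat was held by 5 others. The remaining 7 were of none of these kinds, and their sequences are not printed. The sites printed first crossed a 3′ splice site and are shown because they include the sites found in the most libraries. They are RNA-strand sequences written as DNA, 5′ to 3′, from the GRCm38 (mm10) assembly of RefSeq, with exon bases of GENCODE M21 in capitals and intron bases in lower case.

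Adgrg3 site 5: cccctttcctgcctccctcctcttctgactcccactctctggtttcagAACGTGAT
Adgre5 site 6: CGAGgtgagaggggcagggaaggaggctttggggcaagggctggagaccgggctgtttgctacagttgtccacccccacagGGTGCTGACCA
Adgre5 site 2: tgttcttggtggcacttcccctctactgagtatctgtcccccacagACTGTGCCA
Adgrg1 site 4: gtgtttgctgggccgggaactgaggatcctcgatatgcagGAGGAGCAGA
Adgrg1 site 6: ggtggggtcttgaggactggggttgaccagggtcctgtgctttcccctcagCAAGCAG
Adgrg1 site 7: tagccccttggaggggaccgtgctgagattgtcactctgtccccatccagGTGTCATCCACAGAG

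These sites lie at chr8:95036393-95036448 (plus strand), chr8:83724350-83724441 (minus), chr8:83734117-83734171 (minus), chr8:95006160-95006209 (plus), chr8:95007514-95007571 (plus) and chr8:95008321-95008385 (plus). Each ends a few bases inside the exon, after the intron's final AG. Merged over libraries, Adgre5 site 6 also crosses the 5′ splice site of the same intron. That intron is 77 nt long, and no single peak spans it. The peak of CD11b+ biological library 1 (83724350-83724416) alone crosses the 3′ splice site. That of technical library 4 (83724370-83724441) alone crosses the 5′ splice site. The peaks of biological library 2 and technical library 3 lie inside the intron. The sites printed next were dinucleotide repeats deep in introns, with the searched 6-mers in capitals. The CA 6-mers were ACACAC and its shifted form that starts with C, namely CACACA. The TG 6-mers were those same words as read on the opposite strand, TGTGTG and, shifted, GTGTGT, and the words overlap each other in a repeat.

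Adgrg3 site 1: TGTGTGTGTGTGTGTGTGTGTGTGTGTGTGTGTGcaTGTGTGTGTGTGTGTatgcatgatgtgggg
Adgrg3 site 2: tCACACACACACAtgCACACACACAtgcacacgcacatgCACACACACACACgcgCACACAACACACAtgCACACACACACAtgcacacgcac
Adgrg3 site 3: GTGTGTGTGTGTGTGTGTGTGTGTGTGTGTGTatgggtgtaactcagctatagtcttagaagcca
Adgrl4 site 1: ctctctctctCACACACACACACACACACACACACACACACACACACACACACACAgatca

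They lie at chr8:95023813-95023878, chr8:95027981-95028073, chr8:95031070-95031134 and chr3:151472081-151472141, all on the plus strand. Soft-masking of the assembly covered 93.9% of the first and 100% of the others; the part of repeat mapping in these peaks was not tested.

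At least 1 filtered peak was found on 3 of the 9 genes in Lin- cells (Adgre5, Adgrg1 and Adgrg3) and on 4 of 9 in CD11b+ cells (Adgre5, Adgrg3, Adgrl1 and Adgrl4). Of all listed genes, 26.5% had a peak in Lin- cells and 25.6% in CD11b+ cells, so the members' shares are read beside those. Peaks in both cell types were found on 2 of the 9 genes, against 19.4% of the genes listed for both. Since the peaks took part in choosing the genes, nothing is read from these counts. Adgre1, Adgre4, Adgrg5 and Adgrl2 had no peak in any of the 10 eCLIP libraries, before or after the filter.

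**Figure D1:**
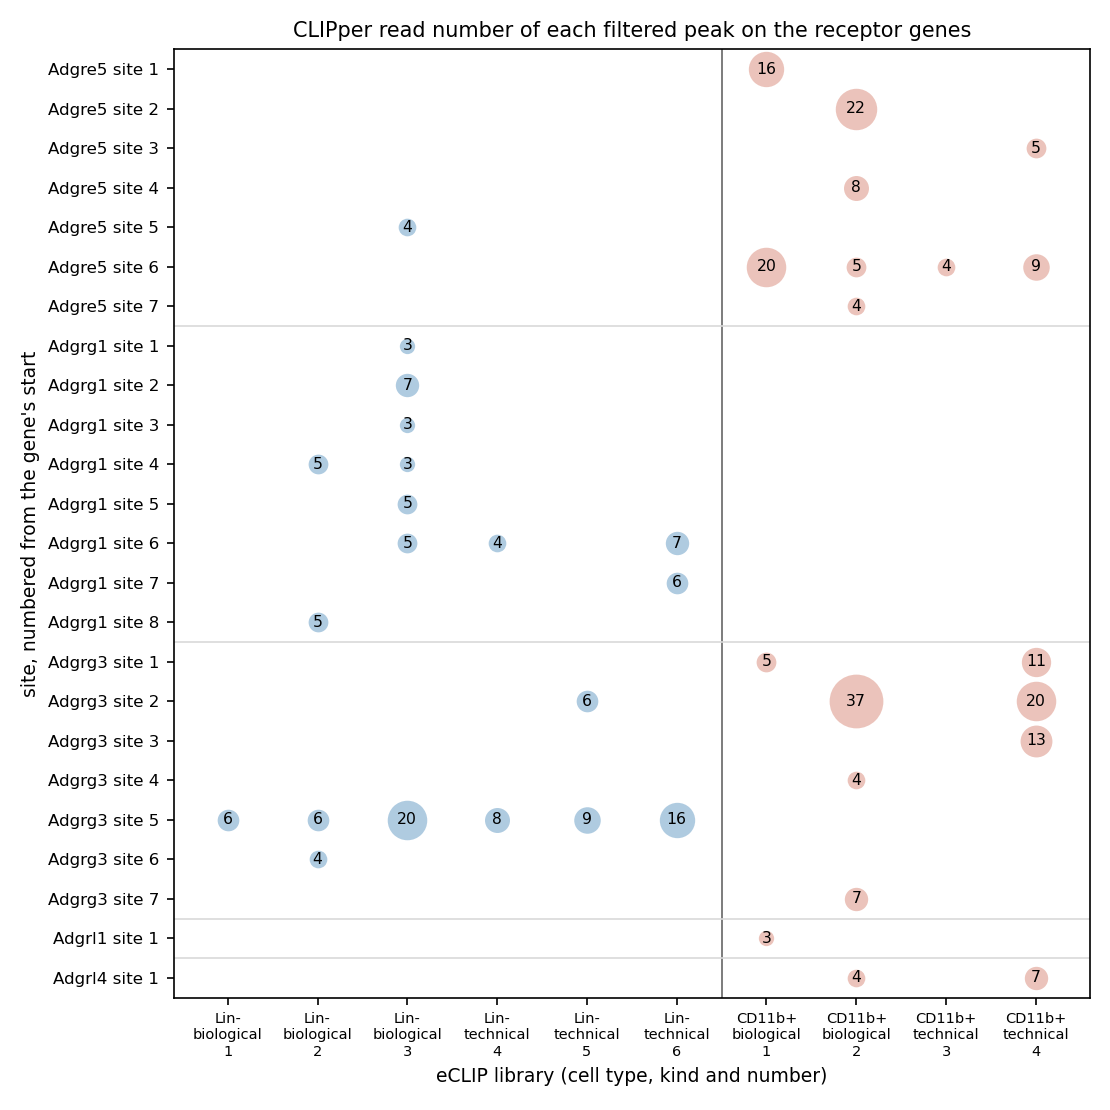
Number of reads in each filtered eCLIP peak on the receptor genes, by site (rows, numbered from the gene's start) and library (columns, 6 Lin- in blue and 4 CD11b+ in red). The area of a circle grows with the printed read number, and an empty cell is a library with no peak there. Adgrg3 site 5 fills all 6 Lin- columns and no CD11b+ column, and Adgre5 site 6 fills all 4 CD11b+ columns and no Lin- column.

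Few sites were shared between the cell types. Peaks of Lin- cells alone made 11 of the 24 sites, peaks of CD11b+ cells alone made 12, and 1 site had both, where 15.1% of all sites merged over both cell types had both. A single library gave 17 of the 24 sites. In Lin- cells 3 of 12 sites had peaks in at least 2 libraries, against 37.7% of all Lin- regions, and in CD11b+ cells 4 of 13 did, against 42.5%.

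Adgrg3 (ENSMUSG00000060470, chr8:95017692-95045250, plus strand) stood at a like place by RNA level in both cell types. It had 2 sites in Lin- cells alone, 4 in CD11b+ cells alone and 1 in both. The authors' mean was 9033 normalized counts in Lin- cells and 9523 in CD11b+ cells, at percentile 98.3 and 98.8 of the genes listed. Per kb of exon, the scale on which genes can be set side by side, it was 3703 and 3904. It is the only one of the 9 genes in the highest of 10 equal groups of level in both tables that also had peaks in both.

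Adgrg3 site 5, at the end of intron 5 of 11, had a peak in every Lin- library. The peaks held 6, 6 and 20 reads in Lin- biological libraries 1, 2 and 3 and 8, 9 and 16 in technical libraries 4, 5 and 6, with a median of 8.5. No CD11b+ library had a peak there, so the groups did not overlap. Among the filtered peaks of their own libraries these peaks ranked from percentile 40.9 to 93.7 by reads. A peak in every library was found for 3.02% of all Lin- regions, and 0.527% of the 32259 sites merged over both cell types had peaks in all Lin- libraries and no CD11b+ library. No smInput library had a peak at this site. The 56 nt site holds 48 intron bases and 8 exon bases, with 53.6% soft-masked.

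In CD11b+ cells, 4 of the 5 Adgrg3 sites were the CA or TG repeats, 3 of them in intron 2, which is 12274 nt long. Site 2 held 37 reads in CD11b+ biological library 2 and 20 in technical library 4, with no peak in the other 2 libraries. Lin- technical library 5 had a peak of 6 reads there, which makes it the only site of the receptors with peaks of both cell types. An smInput peak of 7 reads also lay on it, in Lin- input 4. The input that shares its number with the library, Lin- input 5, had none on the gene and held 217 peaks in all. Site 1 held 5 reads in CD11b+ biological library 1 and 11 in technical library 4. Site 3 held 13 reads in technical library 4 and site 7, a TG repeat in intron 8, held 7 in biological library 2. The remaining CD11b+ site, site 4, held 4 reads in biological library 2 and lay 7 nt from a 3′ splice site, in intron 4. Lin- site 6 held 4 reads in biological library 2 and lay 13 nt from the 3′ splice site of intron 6, which is 119 nt long. Of the 7 Adgrg3 sites, the one across a splice site was found in Lin- cells alone, and 3 of the 4 repeats were found in CD11b+ cells alone. All merged regions leaned the same way: 33.2% of Lin- and 5.94% of CD11b+ regions crossed a 3′ splice site, and 16.6% and 41.3% held a CA or TG 6-mer.

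**Figure D2:**
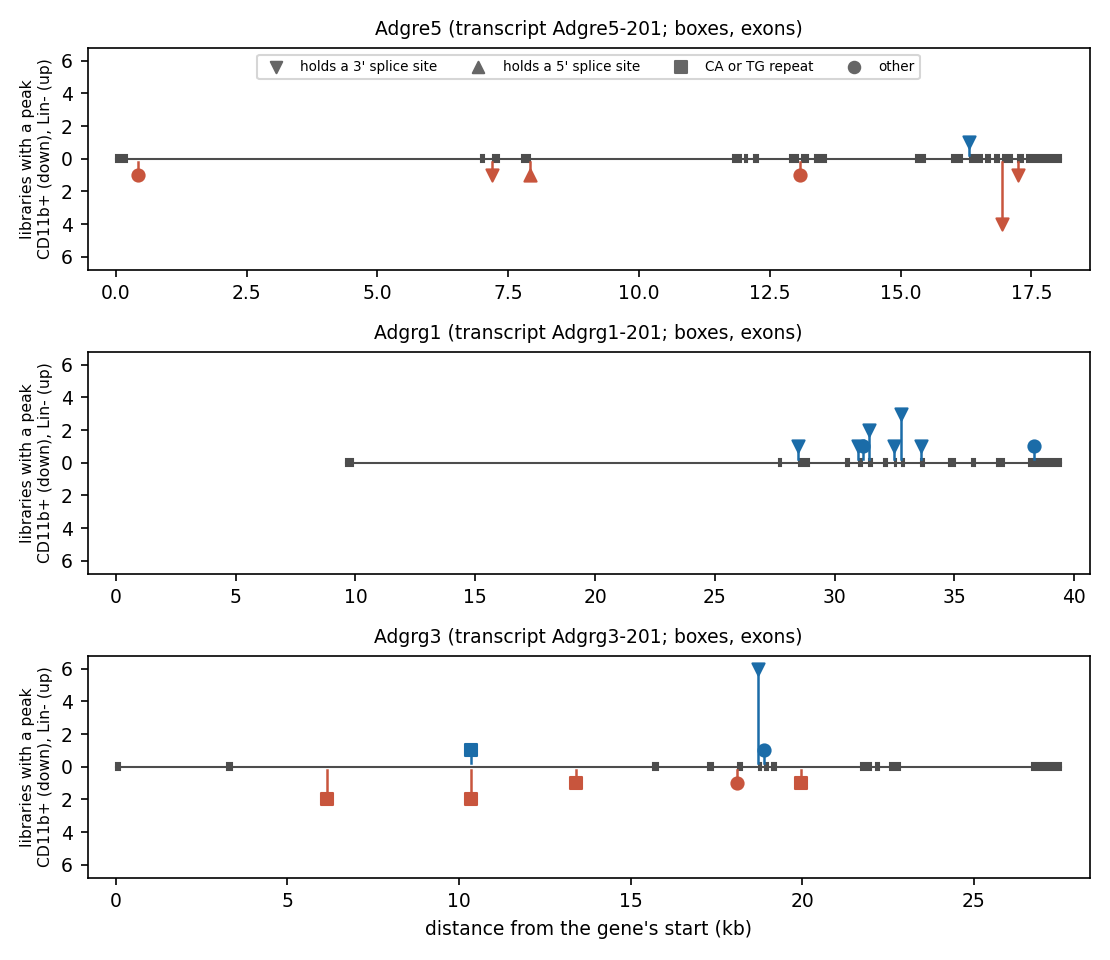
Sites on Adgre5, Adgrg1 and Adgrg3 by distance from the gene's start in kb. The height is the number of libraries with a peak, Lin- upward in blue (of 6) and CD11b+ downward in red (of 4), and the shape gives the kind of site. On Adgrg3 the tallest Lin- site, of 6 libraries, stands at an intron end 18728 nt from its start, with 1 Lin- library each at a repeat of intron 2 and in intron 6, and 4 of the 5 CD11b+ sites are repeats.

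Adgre5 (ENSMUSG00000002885, chr8:83723251-83741326, minus strand), the CD97 receptor, had 6 CD11b+ sites and was the highest of the 9 genes per kb of exon in CD11b+ cells, at 4740. Its mean was 15490 normalized counts there (percentile 99.5) and 2616 in Lin- cells (percentile 89.9, or 801 per kb). Site 6 spans intron 15 of 17 as a merged region, though no single peak does. It held 20 and 5 reads in CD11b+ biological libraries 1 and 2 and 4 and 9 in technical libraries 3 and 4. All 4 CD11b+ libraries had a peak in it and none of the 6 Lin- libraries did. A peak in every library was found for 10.1% of CD11b+ regions, and 1.88% of the sites merged over both cell types had peaks in all CD11b+ libraries and no Lin- library. Technical library 3, the lowest with 4 reads, had no other peak on any of the receptors, and biological library 1, the highest, had 20.

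The other 5 CD11b+ sites of Adgre5 had a peak in 1 library each. Site 2 held 22 reads in biological library 2, at the end of intron 2, and site 1 held 16 in biological library 1, in intron 1 and 180 nt from its 5′ splice site. Site 4 in intron 8, site 3 at the 5′ splice site of intron 4 and site 7 at the end of intron 16 held 8, 5 and 4 reads. The sole Lin- site, site 5, held 4 reads in biological library 3 and crossed the 3′ splice site of intron 12. In all, 4 of the 7 Adgre5 sites crossed a 3′ splice site, 3 of them among the CD11b+ sites. Sites 5 to 7 lie where Ddx39 is annotated on the opposite strand. The peaks are stranded and carry the Adgre5 strand.

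Adgrg1 (ENSMUSG00000031785, chr8:94974751-95014217, plus strand), the GPR56 receptor, had peaks in Lin- cells alone, and more sites than any other member, 8. Its mean was 12263 normalized counts in Lin- cells (percentile 99, or 3142 per kb) and 240 in CD11b+ cells (percentile 63.2, or 61.4 per kb). With the level so much lower, an absence of CD11b+ peaks cannot be told apart from a lack of transcript. Of Lin- genes at the level of Adgrg1, 87.6% had a peak, and of CD11b+ genes at its level there, 28.6% did. That level pools both genotypes, while the peaks are of WT/MLL-Af4 cells.

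Of the 8 Adgrg1 sites, 6 crossed a 3′ splice site. Site 6, at the end of intron 8 of 13, held 5 reads in Lin- biological library 3, 4 in technical library 4 and 7 in technical library 6. Site 4, at the end of intron 5, held 5 and 3 reads in biological libraries 2 and 3. No other Adgrg1 site had peaks in more than 1 library. Sites 1, 2 and 5, at the ends of introns 2, 4 and 7, held 3, 7 and 5 reads in biological library 3, and site 7, at the end of intron 9, held 6 in technical library 6. Site 3, 5 nt into intron 5, held 3 reads in biological library 3. Site 8, with 5 reads in biological library 2, was the only one of the 24 sites outside introns and lay in the 3′ UTR, in the last exon. Lin- biological library 3 gave 6 of the 8 sites and biological library 1 gave none, so that the number of sites on Adgrg1 rested largely on 1 library.

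The 3 G-subfamily genes stand in a row on chromosome 8, Adgrg5, Adgrg1 and Adgrg3, all on the plus strand. The gap between Adgrg1 and Adgrg3 is 3474 nt and that between Adgrg5 and Adgrg1 is 31470 nt. Adgrg5 (ENSMUSG00000061577, chr8:94923694-94943280), a close relative of the other two, had no peak. Its mean was 117 normalized counts in Lin- cells and 9.13 in CD11b+ cells, at percentiles 55.3 and 36.6. Genes at its level had a peak in 8.89% of cases in Lin- cells and 7.61% in CD11b+ cells.

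The remaining genes of the E subfamily had no peak. Adgre1 (ENSMUSG00000004730, chr17:57358691-57483527, plus strand), the F4/80 antigen, had a mean of 1083 in Lin- cells (percentile 77.4, or 334 per kb) and 2474 in CD11b+ cells (percentile 93.3, or 764 per kb). It was the third of the 9 genes per kb of exon in CD11b+ cells. Among genes at its level 47.9% had a Lin- peak and 71.6% a CD11b+ peak, and Adgre1 had none in 10 libraries. The gene spans 124837 nt, and the part of gene length in the peaks was not tested. Adgre4 (ENSMUSG00000032915, chr17:55749984-55853662, plus strand), a myeloid receptor related to it, was low in both, with means of 8.91 and 60.3. Genes at these levels had a peak in 5.87% and 14.8% of cases.

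**Figure D3:**
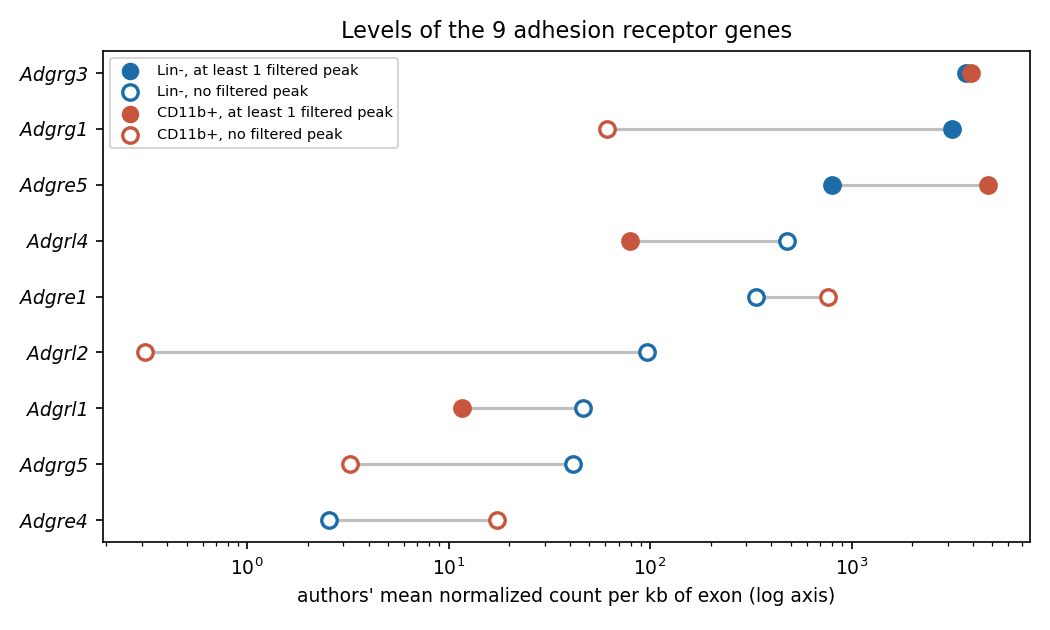
Authors' mean normalized count per kb of exon (log axis) of the 9 genes in Lin- (blue) and CD11b+ (red) cells, filled where the gene had at least 1 filtered eCLIP peak in that cell type. Adgrg3 lies at 3703 and 3904, Adgrg1 falls from 3142 in Lin- to 61.4 in CD11b+ cells, and Adgre1 is open in both cell types. The tables were normalized separately and the means have no error.

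The L-subfamily genes were higher in the Lin- table, and their few peaks were in CD11b+ cells. Adgrl4 (ENSMUSG00000039167, chr3:151437887-151545086, plus strand) had a mean of 1960 in Lin- cells (percentile 86.2, or 477 per kb) and no peak there, while 73% of genes at that level had one. In CD11b+ cells its mean was 326 (percentile 66.7, or 79.4 per kb). Its site, a CA repeat in intron 2, which is 52889 nt long, held 4 reads in CD11b+ biological library 2 and 7 in technical library 4. It lay 20135 nt from the nearest splice site. Adgrl1 (ENSMUSG00000013033, chr8:83900105-83941954, plus strand) had means of 394 and 98.9. Its single peak, in intron 4 at chr8:83924094-83924130, held 3 reads in CD11b+ biological library 1.

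Adgrl2 (ENSMUSG00000028184, chr3:148815583-148990555, minus strand) had means of 620 in Lin- cells and 1.997 in CD11b+ cells, the widest separation of the 9 genes, from percentile 70 to 22.1. It had peaks in the inputs alone. The input site is intronic, at chr3:148855542-148855554, 2681 nt from the nearest splice site, and is 13 nt long. It is shown because it was the most repeated of all signals on these genes.

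Adgrl2 input site: attcaagtcttcc

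All 4 CD11b+ inputs had a peak there, with 46, 39, 33 and 24 reads in inputs 1 to 4. Of the 6 Lin- inputs, 4 had one, with 13, 8, 13 and 10 reads in inputs 1, 2, 3 and 6. No eCLIP library had a peak at the site, before or after the filter. The peaks thus held more reads in every CD11b+ input than in any Lin- input, the opposite order to the authors' mean of the gene. The read depth of the inputs is unknown and the peaks were only 4 to 13 nt wide. Their reads are therefore not a measure of the gene's RNA, and the part of mapping in them was not tested. A further input peak of 3 reads lay elsewhere in Adgrl2, in CD11b+ input 2.

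Over all receptors, the kinds of site were set beside those of all merged regions of each cell type. In Lin- cells 8 of 12 members' sites crossed a 3′ splice site of their gene, where 33.2% of all 19979 Lin- regions did. In CD11b+ cells 3 of 13 did, all on Adgre5, where 5.94% of 17294 regions did. The 5′ splice site was crossed by 0 of 12 and 2 of 13 members' sites, against 13.9% and 4.56% of all regions. At least 1 of the CA or TG 6-mers was held by 2 of 12 Lin- sites and 5 of 13 CD11b+ sites, against 16.6% and 41.3% of all regions. For the CA 6-mers alone, those shares were 2 of 12 and 2 of 13, against 8.49% and 17.3%. The second Lin- hit, beside Adgrg3 site 2, was Adgrg1 site 1, where the 6-mer lies in the exon. Introns held 11 of 12 Lin- sites and 13 of 13 CD11b+ sites by their centre, against 78.4% and 84% of all regions. No members' site was centred in a coding exon.

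**Figure D4:**
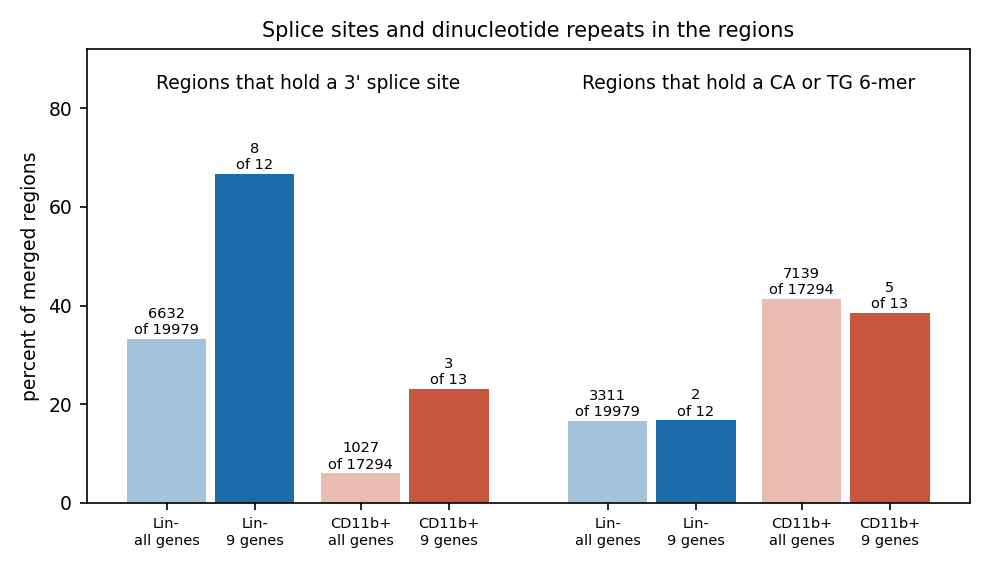
Percent of merged eCLIP regions that cross a 3′ splice site of their gene (left) or hold a CA or TG 6-mer (right), for all genes (pale) and for the 9 receptor genes (dark), in Lin- (blue) and CD11b+ (red) cells. Printed above each bar are the regions counted. For 3′ splice sites these are 8 of 12 and 3 of 13 among the receptors, beside 33.2% and 5.94% of all regions.

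Beyond the 9 genes, the family was mostly low. Of the 22 other genes, 10 had a mean of at least 10 in Lin- cells and 7 in CD11b+ cells, with medians of 5.80 and 5.35 among those listed. A filtered peak was found on 4 of the 21 listed in Lin- cells and 8 of the 18 listed in CD11b+ cells, beside 26.5% and 25.6% of all listed genes. Celsr3, a cadherin-type receptor, had peaks in all 4 CD11b+ libraries, at 5 merged regions and a mean of 1192. Adgrv1, the very large receptor of hair cells, had peaks in 3 libraries of each cell type at means of 2.63 and 2.30. Adgrb3 had peaks in 2 Lin- libraries, and Adgrb1 and Adgrf5 in 2 CD11b+ libraries each. The ligands were lower still in CD11b+ cells, with 3 of 11 at a mean of at least 10 against 8 of 11 in Lin- cells. A peak was found on 4 of the 10 listed in CD11b+ and 3 of the 11 listed in Lin- cells, beside 25.6% and 26.5% of all listed genes. Peaks on the teneurins Tenm2 and Tenm4, ligands of latrophilins, came from 3 CD11b+ libraries each and from 3 and 4 Lin- libraries, at 1 or 2 merged regions, while Tenm3 had peaks in 2 CD11b+ libraries.

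The transducers downstream of these receptors were mostly high. All 14 had a mean of at least 10 in both tables, with medians of 4213 in Lin- and 2489 in CD11b+ cells. A peak was found on 12 of 14 in each. The lowest was Arhgef12, at 473 in Lin- and 70.9 in CD11b+ cells (percentiles 67 and 52.8), with no peak in either. Of all genes in the highest of 10 groups of level, where both medians lie, 87.6% had a Lin- peak and 71.6% a CD11b+ peak. Arhgef1, a guanine nucleotide exchange factor, held 12 merged regions over 6 Lin- libraries and 13 over 4 CD11b+ libraries. Gnas, a G protein subunit, held 16 regions in Lin- and 5 in CD11b+ cells, and Gnaq, another, held 5 and 4. Arrb1, a beta-arrestin, held 20 regions in CD11b+ cells, with a peak in all 4 libraries.

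By the counts of filtered peaks over the 10 eCLIP libraries, the genes most like Adgrg1 were Helz and Nlrc5 (Euclidean distance 2.45) and Aars (2.65). Those most like Adgre5 were Mbd2 (1), Dcaf17 and Diaph2 (1.41). With so few peaks some genes tied, with 4 at the last distance for Adgre5 and 2 for Adgrg1.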

How the data were processed

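CLIPper peaks of 10 eCLIP and 10 smInput libraries and 2 gene tables were used, for 9 genes chosen with earlier results of these data known, as were the gene lists. No test was made, since the values took part in choosing the genes; an exact permutation of 3 against 2 biological libraries would allow no p below 0.1. The authors deposited, per gene and cell type, the mean normalized count over 6 RNA-seq libraries, a pooled signal for which the submitters' processing notes name STAR 2.5.3a, Bowtie2 and DESeq2. The other columns hold the authors' comparison of the genotypes (fold changes, errors, p-values and columns on peaks) and were not used. Each peak carries a value of 0.05 or less, which was read as the CLIPper p-value, and the last number in a peak's name as its reads, after CLIPper's naming. The authors trimmed, mapped and deduplicated reads, called peaks per library and removed eCLIP peaks that overlap smInput peaks. According to the headers, inputs and eCLIP libraries had different deduplication and calling settings.

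Peaks were merged where they shared at least 1 base on the same strand, within a cell type for counts and over all libraries for sites. Genes came from the Ensembl ID in each peak's name, and locations from the centre of a region in the basic transcripts of GENCODE M21. A region crossed a splice site if it held the last base before and the first base after the boundary, in any basic transcript of its gene. Introns are numbered in the first-named transcript of a gene. Sequences came from RefSeq GRCm38.p6, the build of the peaks (mm10). Percentiles are among genes with a mean above 0, and genes at a like level are those in the same of 10 equal groups of the table by level. Peaks were named for other genes by a rule: a peak in at least 2 libraries of a cell type, at most 4 genes per list, by libraries and then regions. A gene that this rule includes is not reported here. The TG 6-mers, the splice-site crossing and the kinds of site were chosen after the values were seen. Python 3.11.15, NumPy and matplotlib were used, and merging, placement and motif search were tested on simulated regions.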

Additional observations from a re-analysis of the deposited data

Results flagged for a closer look

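Among groups of 4 to 10 libraries, which here are the inputs alone, 9 groups of values were examined. The limit used is meant to set a library apart by chance in about 1 in 20 groups. Several groups are small tied counts or come from the same peaks, so that rate does not hold here. Lin- input 5 stood apart with 0 peaks on the 9 genes, where each other Lin- input had 1; it also had the fewest peaks in all, 217. Lin- input 4 stood apart with 7 reads in peaks on Adgrg3, where the other Lin- inputs had none. CD11b+ input 2 stood apart with 2 peaks on the 9 genes, where each other CD11b+ input had 1. With counts this small, 1 peak more or fewer is enough to set a library apart.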

How the results depend on the processing

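The number of sites on the receptors depended on the libraries and on the strength asked of a peak. Merged regions numbered 12 in Lin- and 13 in CD11b+ cells. With technical libraries only they were 4 and 6, with a peak in at least 2 libraries 3 and 4, and with a deposited value below 0.001 they were 4 in Lin- and 9 in CD11b+ cells. With biological libraries only they were 10 and 11. Leaving out each biological replicate from those gave 4 to 10 regions in Lin- cells, the fewest without replicate 3, and 4 to 8 in CD11b+ cells, with 8 without replicate 1 and 4 without replicate 2. Members with a peak stayed within 2 to 3 in Lin- and 3 to 4 in CD11b+ cells over these settings, but not as the same genes: Adgre5 had no Lin- site with technical libraries only, at least 2 libraries, a value below 0.001 or without Lin- biological replicate 3, and in CD11b+ cells Adgrl1 was lost under the first 3 of these settings and without biological replicate 1, and Adgrl4 without biological replicate 2. Adgre5 had 6 CD11b+ sites to 5 on Adgrg3, and 2 to 3 with technical libraries only and 1 to 2 with a peak in at least 2 libraries. Peaks before the input filter and assignment by overlap with the annotated gene gave the same counts. By the CA 4-mers ACAC and CACA, 6 of 12 and 7 of 13 sites held the motif, beside 25.7% and 26.6% of all regions. By the TG 6-mers, added after the data were seen, 0 and 3 did, beside 8.18% and 24.3% of all regions. The part covering most bases placed the same number of sites in introns, and all GENCODE transcripts gave the same 11 sites at 3′ splice sites. Of genes with a mean of at least 10, a peak was found on 39.8% in Lin- and 37.1% in CD11b+ cells. No paired analysis was possible because the labels do not pair eCLIP libraries across cell types and the level tables hold no per-library values. Read numbers of 3 to 37 per peak limit how far single sites can be ordered.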

Other observations

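Some family members outside the 9 genes, noticed after their values were seen, had a high RNA level with no peak. Adgrd1 had a mean of 16149 normalized counts in Lin- cells (percentile 99.4) and Adgrg6 one of 12802 (percentile 99.1), and neither had a filtered peak in any of the 6 Lin- libraries. Of Lin- genes in that group of level, the highest of 10, 87.6% had a peak. In CD11b+ cells their means were 402 and 209, and Adgrd1 had a peak in 1 library. Adgrv1 stood at the opposite end, with peaks in 3 Lin- libraries at a mean of 2.63.

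Itgam, the gene of the CD11b antigen by which the cells were sorted, had peaks in all 4 CD11b+ eCLIP libraries while its mean in the CD11b+ table was 16.98. The cause was not tested.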
